A study of Mus musculus with 36 samples.

Results

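5-methylcytosine (5mC) was compared between 12 and 4 weeks after surgery in the articular cartilage of mouse knees operated by destabilization of the medial meniscus (DMM), which leads to osteoarthritis. The members were the 6 oxidative bisulfite (oxBS) libraries of the operated right leg, 3 from week 12 and 3 from week 4, out of 36 samples in the series, and the 1260311 autosomal CpG cytosines read at least 10 times in all 6 of them. The mice were male C57BL/6J, operated at 12 weeks of age. Each DNA sample came from the tibial and femoral cartilage of 3 pooled knees, and both groups carried the operation. The comparison therefore has no unoperated arm of its own. Time since surgery and age of the mouse changed together and cannot be told apart. The unconverted share of mitochondrial reads also differed by week in both limbs, as given below. A difference between library preparations therefore cannot be told apart from time either. Which libraries shared a pool is not given in the sources used here. The unoperated left legs of both weeks, the bisulfite (BS) libraries of the same DNA and the RNA libraries of other mice of the same design are given beside the result where they bear on it.

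5mC is placed on CpG dinucleotides by the DNMT enzymes and is copied to both strands when DNA replicates, while TET enzymes oxidise it to 5-hydroxymethylcytosine (5hmC). BS conversion reads both marks as cytosine, whereas prior oxidation leaves 5mC as the only mark read as cytosine. Promoters rich in CpGs are mostly unmethylated. The bodies of genes that a cell type uses heavily, such as the collagen and aggrecan genes of chondrocytes, often carry less 5mC in that cell type than in others.

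The sequences of the stretches on which the results turn are given here on the plus strand of GRCm38, from RefSeq, with the tested CpGs in capitals. The Nkx3-2 and Macroh2a1 stretches are the regions called, Plekhh3 and Hoxa3 hold cytosines lower at week 12 in every library, 2810004N23Rik holds one called with each library left out, and Adamts14 holds one at which the week-12 libraries split.
Nkx3-2, chr5:41762135-41762199: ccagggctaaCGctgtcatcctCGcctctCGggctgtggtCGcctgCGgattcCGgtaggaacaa
Macroh2a1, chr13:56111126-56111184: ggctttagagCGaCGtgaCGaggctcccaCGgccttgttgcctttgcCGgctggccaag
Plekhh3, chr11:101164391-101164457: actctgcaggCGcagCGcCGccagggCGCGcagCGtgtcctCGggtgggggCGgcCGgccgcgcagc
Hoxa3, chr6:52200643-52200694: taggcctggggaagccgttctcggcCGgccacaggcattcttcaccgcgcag
2810004N23Rik, chr8:124861613-124861664: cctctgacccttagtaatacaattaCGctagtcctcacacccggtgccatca
Adamts14, chr10:61273513-61273564: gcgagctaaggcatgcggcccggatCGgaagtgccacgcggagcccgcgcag

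The libraries differed in depth and in structure. Median coverage of the tested cytosines ran from 24 to 121 reads, with replicate 2 of week 4 the shallowest. Replicate 1 of week 12 has a title written in another style than those of replicates 2 and 3. At cytosines of large difference it stood apart from them and nearer to week 4. At cytosines with 20 reads in both libraries it differed by 50 points or more from replicate 2 at 317 and from replicate 3 at 433, against 26 between replicates 2 and 3. It differed that far from the week-4 libraries at 16, 29 and 6 cytosines, whereas replicate 2 did so at 122, 403 and 184 and replicate 3 at 152, 246 and 196. Its mean absolute difference at cytosines with 20 reads in both was 3.49 and 3.20 points from replicates 2 and 3. From the week-4 libraries it was 2.72, 3.78 and 3.06 points, so by this measure the order was mixed. Results are also given without replicate 1 of week 12, and what sets it apart was not tested. Cytosines of the mitochondrial genome, counted here as a measure of incomplete conversion, were read as methylated in 0.284 to 0.351% of reads at week 12 and in 0.530 to 0.742% at week 4. In the oxBS libraries of the control limb these shares were 0.319 to 0.324% and 0.590 to 0.662%. In the RNA libraries all 20 chondrocyte markers were detected, summing to 28931 to 47063 CPM (counts scaled to library size) at week 12 and 21172 to 32078 at week 4. Markers of haematopoietic cells summed to 15985 to 25413 and 12472 to 20129 CPM, and those of osteoblasts and osteocytes to 19942 to 25047 and 14387 to 21062, so the tissue was not chondrocytes alone. Adipocyte markers summed to 198 to 327 CPM at week 12 and 396 to 535 at week 4, without overlap, and those of skeletal muscle to 718 to 13572 and 714 to 4446. Fibroblast and synovium markers summed to 17692 to 26886 and 11970 to 17894 CPM, with Prg4 the largest part. Prg4 is also in the cartilage matrix list used below, so this sum is not a measure of fibroblasts alone. By gene 7 of 14 fell and 2 rose (edgeR, adjusted p under 0.05), beside 9.55% and 11.8% of all genes, with a median log2 difference of -1.03. The part of these cell types in the 5mC differences was not tested.

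The methylome as a whole was nearly the same at both times. Mean 5mC over the tested cytosines was 29.1, 29.8 and 29.3% in the week-12 libraries and 29.3, 28.4 and 28.8% in the week-4 libraries. The means, 29.4% ± 0.382 and 28.9% ± 0.437 (SD, n = 3 each), differed by 0.528 points, which an exact two-sided permutation test did not separate (p = 0.3, where 0.1 is the smallest p of 3 against 3). Weighting cytosines by reads turned the sign, to -0.647 points. With the percent read as methylated on the mitochondrial genome subtracted in each library, the difference was 0.832 points, without overlap (exact permutation p = 0.1). At 82.8% of cytosines the library means differed by under 5 points and at 94.5% by under 10. Differences of 25 points or more were seen at 1684 cytosines, or 0.134%. Every week-12 library was above every week-4 library at 46848 cytosines (3.72%) and below at 39495 (3.13%).

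Gene bodies of the cartilage matrix stood higher at week 12. Of 26 genes in a list of cartilage matrix and chondrocyte genes, 24 had tested CpGs between 1000 bp upstream of the start and the end of the gene. The mean 5mC of this window was higher at week 12 in 22 of them and lower in 2, with a median difference of 3.53 points. Over all 19366 genes with tested CpGs the median was 0.0977 points and 54.2% were higher. Every week-12 library lay above every week-4 library in 10 of the 24 genes and below in none, against 8.47% and 12.2% of all genes. With CpGs weighted by reads, 4 of the 24 were higher without overlap, against 3.74% of all genes, at a median of 3.69 points. The list was also set beside genes at 10 to 90% in the week-4 control limb, of which 12.1% were higher without overlap and 3.19% lower without overlap, with a median of 0.548 points.

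Col2a1, the main collagen of cartilage, had 25.1, 31.2 and 25.9% 5mC at week 12 and 24.3, 19.8 and 23.6% at week 4, over 117 CpGs at chr15:97975602-98005724. All of its week-12 libraries were above the week-4 ones, replicate 2 by far the most. Acan, the aggrecan core protein (76 CpGs at chr7:79052226-79115099), had 28.7, 32.3 and 28.0% against 26.6, 26.3 and 27.1%. Col11a2, a minor fibrillar collagen, had 41.6, 47.4 and 42.1% against 40.4, 36.9 and 39.1% over 79 CpGs. The other genes without overlap were the type IX collagens Col9a1, Col9a2 and Col9a3, the chondrocyte glycoprotein gene Cnmd, the matrix genes Cilp and Fmod, and Sox5, which encodes a chondrocyte transcription factor. Sox9, the master regulator of chondrocytes, was nearly unmethylated at both times, with 1.77, 2.59 and 1.26% against 2.05, 1.45 and 1.77%. Comp, Matn1, Matn3, Matn4 and Cilp2, which encode other matrix proteins, differed by under 1 point. No gene of these was tested singly. These genes were picked out after their values were seen.

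**Figure D1:**
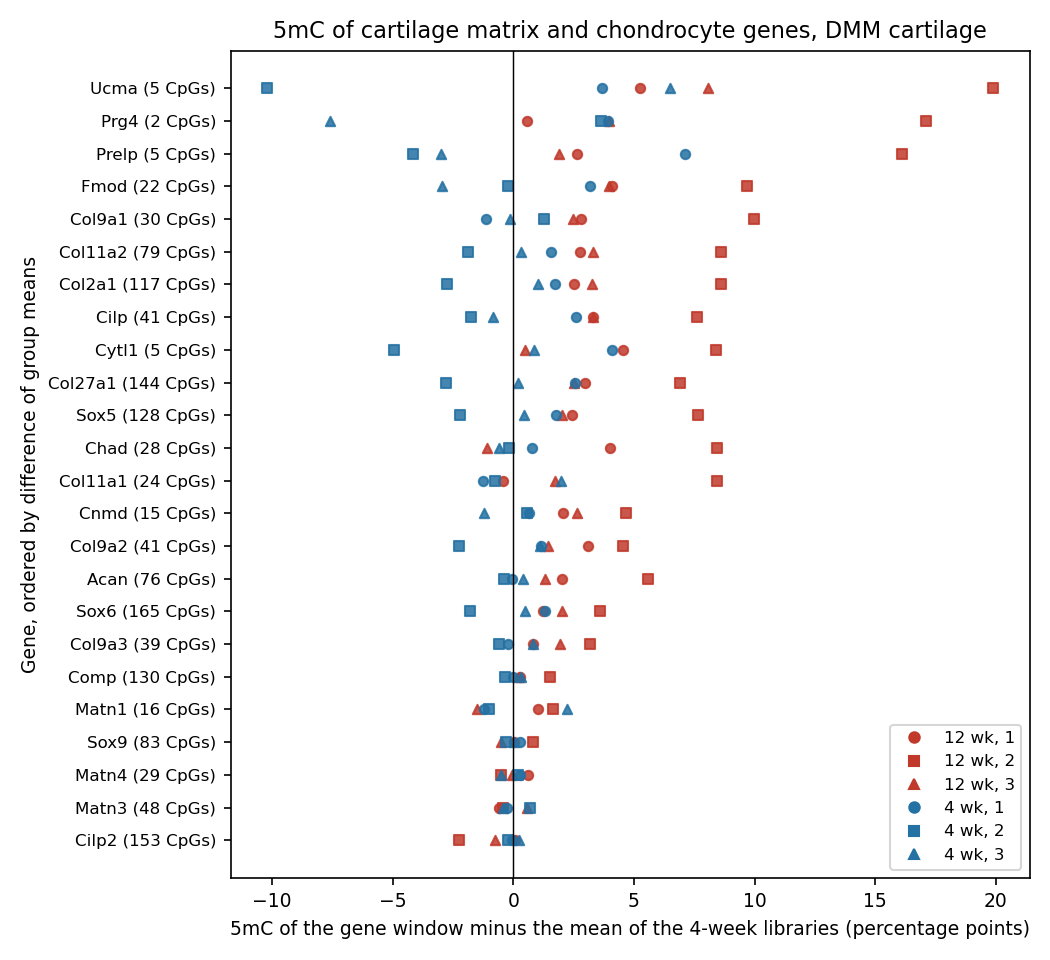
Mean 5mC of the window of each cartilage matrix and chondrocyte gene in each oxBS library of DMM cartilage, in percentage points from the mean of the week-4 libraries; each row is a gene, each point a library. The week-12 points lie mostly to the right, replicate 2 of week 12 the farthest, in 22 of 24 genes with a positive difference of means.

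The size of this difference rested partly on single libraries, and its sign was the same without each of them. The median over the list was 4.07 points without replicate 1 of week 12, 2.25 without replicate 2 of week 12 and 2.83 without replicate 2 of week 4, the 2 shallowest libraries. The control limb had like values, and its median over the list was 3.34 points, with 11 genes higher without overlap, against 7.16% of all genes. In RNA, 6 of the 26 genes rose and none fell (edgeR, adjusted p under 0.05, beside 11.8% of all genes higher and 9.55% lower). Sox9 rose by 2.07 on the log2 scale (SE 0.295, adjusted p = 0.00698), Col11a2 by 1.77 (adjusted p = 0.00957) and Acan by 1.33 (adjusted p = 0.0256). Col2a1 had 1884 ± 487 CPM at week 12 and 1430 ± 667 at week 4 (SD, n = 3), adjusted p = 0.433. In bulk DNA a change of 5mC in chondrocytes and a change in their share of the cells cannot be told apart.

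Lists of other cell types did not all show the same pattern. Windows of haematopoietic marker genes had a median difference of -0.239 points, with 14 of 23 lower and none without overlap. Endothelial markers had -0.244 points over 15 genes, and osteoclast markers -0.188 over 10. Over the pooled CpGs of these lists the sign was the opposite, with 0.142 points for haematopoietic, 0.571 for endothelial and 1.56 for osteoclast markers, all with overlapping groups. Beside the 8.47% of all genes that were higher without overlap, skeletal muscle markers were higher in 17 of 20, with a median of 1.04 points and 4 without overlap, and markers of osteoblasts and osteocytes in 9 of 12, with a median of 1.21 and 2 without overlap. Genes of fibrillar, basement membrane and other matrix were higher in 28 of 35, with a median of 1.63 points and 6 without overlap. Fibroblast and synovium markers were higher in 9 of 12, with a median of 0.771 points and 2 without overlap, and their pooled CpGs stood at 37.5, 39.4 and 37.9% against 37.3, 37.4 and 37.2%, without overlap. Adipocyte markers were higher in 6 of 10, with a median of 0.393 points and none higher without overlap. Medians were negative in lists of developmental regulators. Windows of limb, joint and skeletal patterning genes were lower in 31 of 50, with 11 lower (22%) and none higher without overlap, beside 12.2% lower of all genes, and their CpGs stood at 12.2, 12.3 and 12.0% against 12.4, 12.6 and 12.7%. Regulators of other lineages were lower in 47 of 72, with 18 lower without overlap (25%). Hox genes were lower in 26 of 39, with 5 without overlap (12.8%), a share near that of all genes. At 10 to 90% in the week-4 control limb stood 22 windows of patterning genes, 22 of other lineages and 13 of Hox genes. Of these 5, 3 and 0 were lower without overlap, beside 3.19% of all genes at that level. The remaining windows were not set beside genes of like level. The share of mitochondrial reads left unconverted was also lower at week 12, and its part in these small losses was not tested gene by gene.

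Differentially methylated regions (DMRs) were defined by at least 3 CpGs spaced within 100 bp, 1 or more of which changed by 25 points (q under 0.01), with 20 points or more as their mean change. Of 97734 such CpG clusters 2 were DMRs (0.00205%). The first lay in Nkx3-2, a homeobox gene that keeps chondrocytes from maturing and helps to pattern joints, at chr5:41762145-41762189, where 4 CpGs fall in coding exon and 2 in the adjoining intron. Its mean over 6 CpGs was 23.04, 17.0 and 16.2% at week 12 and 40.8, 29.2 and 39.4% at week 4, from 72 to 715 reads a library. The group means were 18.8% ± 3.73 and 36.5% ± 6.36 (SD, n = 3). Every week-12 library was below every week-4 one, and the mean difference from the reads pooled per group, on which the DMR definition acts, was -20.01 points. From the unweighted library means it was -17.7 points, short of the 20 points that a DMR needs. The second lay in an intron of Macroh2a1, which encodes a histone H2A variant, at chr13:56111136-56111174. Its 5 CpGs averaged 52.6, 51.6 and 58.1% at week 12 and 39.9, 16.3 and 20% at week 4, a mean difference of 26.0 points from pooled reads and 28.7 from the library means. Replicate 1 of week 4 lay between the other groups of values, and its CpG farthest from the start was at 42%, within the range of week 12.

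**Figure D2:**
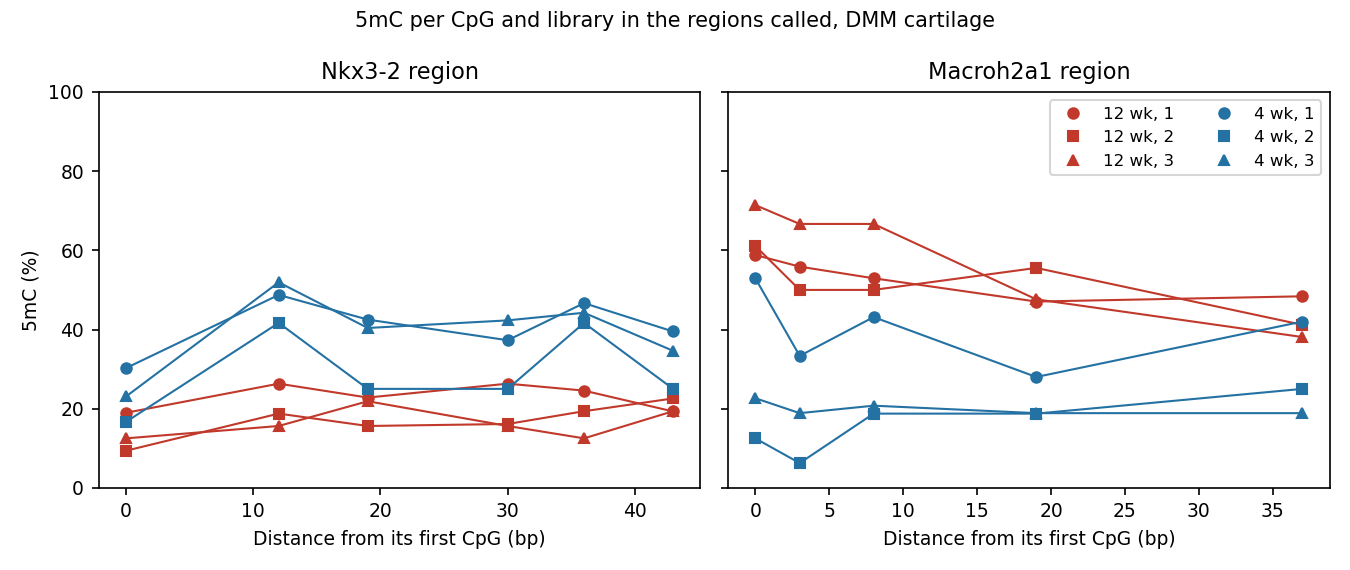
5mC of each CpG of the Nkx3-2 and Macroh2a1 regions against its distance from the first CpG, with a line per oxBS library of DMM cartilage. In Nkx3-2 the week-12 lines run mostly below the week-4 lines, with replicate 1 of week 12 above replicate 2 of week 4 at the first and the fourth CpG, and in Macroh2a1 they run above them up to the last CpG, where replicate 1 of week 4 (42%) lies above replicates 2 and 3 of week 12 (41.2 and 38.1%).

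The DMRs did not pass a test over replicates. In limma on log2 ratios of methylated to unmethylated reads summed per cluster, the Nkx3-2 cluster differed by -1.31 (SE 0.295, adjusted p = 0.354) and that of Macroh2a1 by 1.85 (SE 0.404, adjusted p = 0.354). No cluster was called in that test (0%), while 11925 had an unadjusted p under 0.05, 4272 higher (4.37%) and 7653 lower (7.83%). Without replicate 1 of week 12 there were 56 DMRs, 52 of them higher, among them Nkx3-2 but not Macroh2a1, and limma called 21 clusters, all higher. Without replicate 1 of week 4 there were 13, among them Macroh2a1 but not Nkx3-2, and without replicate 2 of week 4 there was 1, Nkx3-2. Neither region was called without replicate 2 or 3 of week 12 or replicate 3 of week 4. The mean difference ranged from -23.1 to -17.8 points in Nkx3-2 and from 19.7 to 34.8 in Macroh2a1 over the 6 fits that left out a library. The BS libraries had 23.7, 38.8 and 36.1% against 34.7, 55.2 and 44.4% in Nkx3-2, and 55.5, 58.3 and 48.0% against 44.8, 47.1 and 41.8% in Macroh2a1, so that the Nkx3-2 groups overlapped in BS and those of Macroh2a1 did not. The control limb had 11.4, 12.3 and 9.80% against 24.6, 34.4 and 36.6% in Nkx3-2, without overlap, and in Macroh2a1 52.6 and 67.8% in 2 libraries against 51.2, 32.05 and 42%. The week by limb interaction of the Nkx3-2 cluster was not called. Nkx3-2 RNA was 2.64 ± 0.708 and 1.81 ± 0.880 CPM (SD, n = 3; adjusted p = 0.349) and Macroh2a1 RNA 227 ± 43.8 and 171 ± 9.91 CPM (adjusted p = 0.134).

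Single cytosines were called differentially methylated (DMCs) at q under 0.05 and 25 points or more in a logistic likelihood ratio test of the summed reads, with the thresholds of the study but not its tool. There were 129 (0.0102% of those tested), 73 higher (0.00579%) and 56 lower (0.00444%) at week 12. At q under 0.05 alone there were 579, with a median absolute difference of 18.8 points. This test takes reads as independent and so does not see the spread between libraries. Promoters held 12 of the DMCs (9.30%) and 40.1% of the tested cytosines, exons 25 (19.4% and 14.3%), introns 50 (38.8% and 24.5%) and sequence outside genes 42 (32.6% and 21.02%). Promoter cytosines averaged 2.46% at week 12 and 2.66% at week 4, so few of them could fall by 25 points. By library means 0.0136% of them differed by 25 points or more, beside 0.134% of all cytosines. These shares therefore depend on level and threshold as well as position. Pooled 5mC of the higher DMCs had a median of 26.6% at week 4 and 63.1% at week 12, and that of the lower ones went from 74.7% to 41.5%. Libraries of the 2 weeks did not overlap at 89 of the 129, beside 6.85% of all cytosines, which a call by difference favours.

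The DMCs were of 2 kinds. At 75, of which 37 were higher and 38 lower, replicate 1 of week 12 stood nearer to the other week-12 libraries than to week 4. At the other 54, of which 36 were higher and 18 lower, it stood nearer to week 4, and at 33 of these it was 50 points or more from the mean of replicates 2 and 3. Kcnf1, a potassium channel subunit gene, had 0, 93.8 and 94.1% at chr12:17176432 against 0, 0 and 0%. Rora, a nuclear receptor gene, had 0, 76 and 77.1% in its promoter at chr9:68654100 against 2.30, 0 and 0%. Adamts14, which encodes a procollagen protease, had 2.56, 71.4 and 100% at the CpG in capitals above, within its promoter window, against 1.01, 0 and 3.03%. At these 3 sites replicates 2 and 3 of week 12 stood far above the other 4 libraries. In Spred2, an inhibitor of growth factor signalling, the same split ran downwards at chr11:19965414, with 100, 26.3 and 20% against 90.3, 81.8 and 93.1%. Without replicate 1 there were 2345 DMCs, of which 2162 were higher, while leaving out each other library gave 100 to 420.

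**Figure D3:**
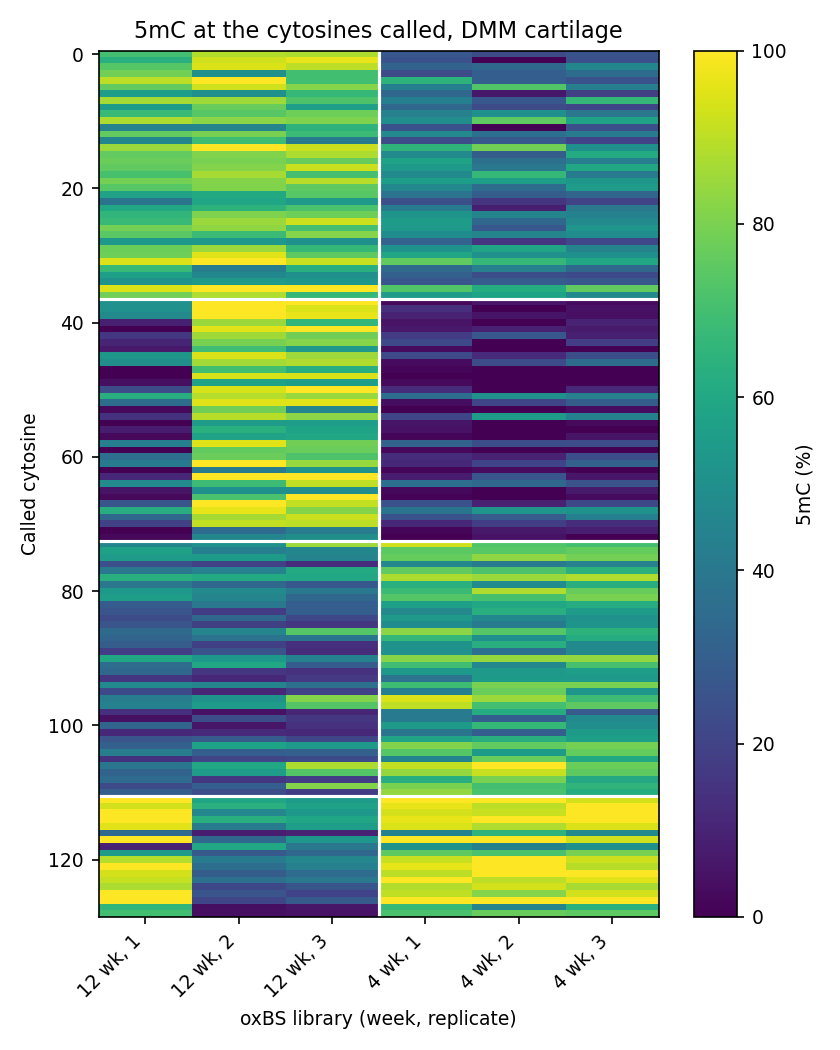
5mC (colour, 0 to 100%) of the 129 DMCs in each oxBS library of DMM cartilage; white lines part higher from lower DMCs and, within each, those where replicate 1 of week 12 was nearer to week 12 (37 and 38) from those where it was nearer to week 4 (36 and 18). In the latter blocks the first column looks like the week-4 columns.

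Where replicate 1 went with its group, the libraries of the 2 weeks did not overlap at 67 of the 75, beside 6.85% of all cytosines. The way these 75 were picked, by their difference and by replicate 1, favours this. Of the 29 DMCs called with each library left out, 6 were among the 75. At the CpG in capitals above, in an intron of 2810004N23Rik, 5mC was 30.2, 23.5 and 17.4% at week 12 against 83.9, 71.4 and 61.8% at week 4. It was 70, 88.5 and 87.5% against 27.5, 23.1 and 26% in an intron of Armh3 at chr19:45988898, and 73.5, 94.7 and 90% against 31.3, 33.3 and 46.1% in an intron of Wdr25 at chr12:108905327. An intergenic cytosine in a repeat at chr6:57199775 had 63.4, 92.9 and 96.7% against 25, 0 and 24.4%. In both introns and at the repeat, replicate 1 was again the lowest of week 12. The other 2 were near Fam43b and in Plekhh3. A coding exon of Plekhh3 held 4 lower DMCs within the stretch printed above, of which that at chr11:101164446 had 22.4, 10.7 and 19.4% against 43.0, 77.3 and 52.6%. BS libraries at this cytosine had 22.2, 12.5 and 12% against 44.9, 51.4 and 45.7%, and control libraries 5.56, 22.6 and 32.1% against 32.7, 46.5 and 38.2%, neither with overlap. Plekhh3 RNA had a log2 difference of 0.63 (adjusted p = 0.0735 in edgeR and 0.0455 in DESeq2). These sites were named after their values were seen.

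DMCs also lay in Lmx1b, Nkx3-2 and Dlx3, of the limb, joint and skeletal patterning list. Lmx1b, which sets the dorsal side of the limb and acts in the joint, had 14.7, 20.8 and 22.6% against 45.3, 76.9 and 60.9% in an intron at chr2:33636635, but 54.2, 35.3 and 52.3% against 43.96, 53.3 and 62.5% in BS. Dlx3, a regulator of bone formation, had 0, 35 and 42.4% against 1.79, 6.67 and 8.57% in an intron at chr11:95123055, so its replicate 1 lay with week 4. Among Hox genes, the cytosine of the CpG in capitals above, in the Hoxaas3 promoter and an intron of Hoxa3, had 26.5, 28.6 and 20.8% against 58.3, 62.5 and 56.3%. Its control libraries had 44.1, 52.4 and 31.8% against 85, 68.9 and 52.4%. Hoxa3 RNA was higher at week 12 by 1.36 on the log2 scale (edgeR, SE 0.406, adjusted p = 0.0419), with 2.75 ± 0.695 and 1.07 ± 0.504 CPM (SD, n = 3). RNA of Hoxaas3, whose promoter holds the cytosine, had a log2 difference of 1.02 and did not pass (edgeR, adjusted p = 0.165). Of 67 genes with a DMC in their body or promoter that were tested in RNA, 14 were higher and 3 lower, 25.4% in all beside 21.3% of all genes.

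Further measures not used in the calls were read at the same DMCs, with reads pooled per week. In BS, the 37 higher DMCs where replicate 1 went with week 12 had a median difference of 3.58 points, against 27.3 in oxBS, and 29 of them were within 10 points of 0. The 33 lower ones with BS values had -16.6 points, 29 in the same direction. Where replicate 1 went with week 4 the pooled BS medians were as large as those of oxBS, with 41.0 points at 19 higher and -41.7 at 13 lower DMCs. Pooling weights replicate 1 of week 12 unlike in the 2 readouts. Its median autosomal coverage was 73 reads in oxBS, beside 32 and 43 in replicates 2 and 3. In BS it was 24, beside 29 and 39. The sizes of the BS and oxBS medians are therefore not of like weight. In the control limb, 58 of 61 higher DMCs and 43 of 49 lower ones moved in the same direction, with medians of 24.1 and -20.3 points. These knees were those of the operated mice, so they are not independent of the DMM libraries. Replicate 2 of the control limb at week 12 has a title like that of DMM replicate 1 and split off likewise, as at the Adamts14 cytosine, where control week 12 had 94.1, 0 and 92.9%.

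CpG methylation is mostly symmetric. For 33 DMCs the cytosine of the other strand was also tested. It differed between weeks by under 10 points at 27 of them and went in the same direction at 23 (of all 228 cytosines with both strands tested that differed by 25 points or more, the other strand went in the same direction in 68.4%, with a median of 3.81 points). At the 14 where replicate 1 went with week 4, none moved by 10 points or more. The median gap between the strands at these 33 was 16.8 points at week 12 and 11.6 at week 4. Over all 187864 CpGs tested on both strands, which were not picked for a difference on 1 strand and differ in level from the DMCs, it was 0.655 points. In Zfp865, the cytosine at chr7:5030994 changed by 55.9 points and its partner by -0.110 points. The repeat cytosine at chr6:57199775 changed by 50.9 points and its partner by 1.31. Both strands differed without overlap in Plekhh3 at chr11:101164446, with -30.3 and -28.5 points, and in the non-coding Hoxaas2 gene at chr6:52168770, with -34.6 and -23.9. Pooled reads also differed by 10 points or more on both strands in Ctdspl at chr9:119001142, with 26.2 and 15.8. The same held in Gm13986 at chr2:118073131, with 27.2 and 11.3, and in Wdr25, with 42.1 and 10.6. In these genes the libraries of the 2 weeks overlapped on the other strand. There Gm13986 had 70.2, 47.1 and 63.6% against 49.5, 70 and 52.5%. Wdr25 had 54.3, 88.5 and 100% against 56.3, 62.5 and 56.9%. What sets the strands apart at DMCs was not tested.

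**Figure D4:**
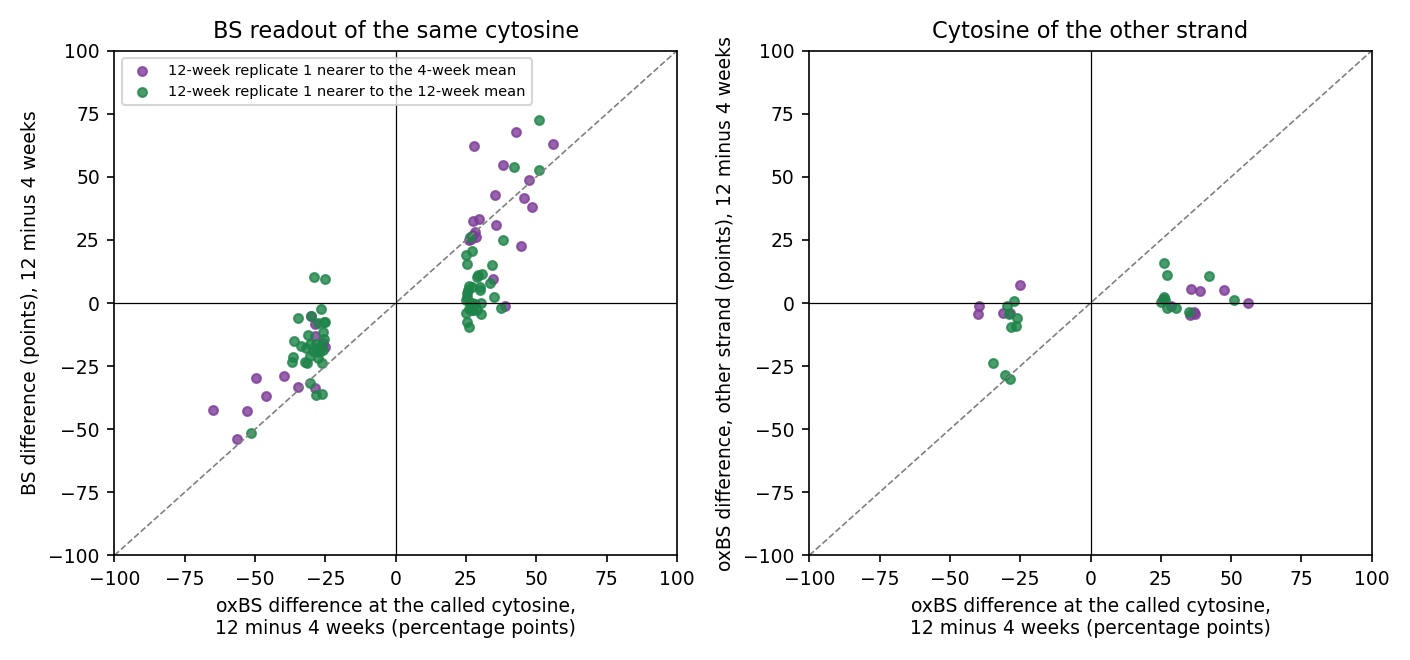
Difference between 12 and 4 weeks, in percentage points, at DMCs in oxBS (x axis) against that of the BS libraries at the same cytosine (left) and of the other strand in oxBS (right); each point is a DMC, coloured by whether replicate 1 of week 12 was nearer to week 4 or week 12, and the dashed line marks equal values. BS values are drawn as differences of unweighted library means, while the x axis and the right panel use reads pooled per week. The dashed line in the left panel thus sets unlike weightings beside each other. With pooled reads, which are not drawn, the BS median of the higher DMCs nearer to week 12 was 3.58 points. In the right panel, 27 of the 33 other-strand values are within 10 points of 0.

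Promoters, taken from 1000 bp upstream to 500 bp downstream of the start, stood slightly lower at week 12. None of 14721 passed limma (adjusted p under 0.05, 0%; smallest adjusted p 0.0554), while at an unadjusted p under 0.05 there were 5276 lower (35.8%) and 161 higher (1.09%). Every week-12 library was below every week-4 one at 5870 promoters (39.9%) and above at 239 (1.62%). A fit of all 12 libraries, which shares the spread over both limbs, called 2502 promoters in DMM, 2487 of them lower, and 2261 in the control limb (15.5%), 2224 of them lower. In that fit the control limb had 5005 promoters lower (34.4%) and 240 higher (1.65%) at an unadjusted p under 0.05. The median difference was -0.278 points, and 87.7% of promoters moved by under 1 point. By cytosine, the class under 10% in the week-4 control limb stood at 0.785, 0.873 and 0.827% at week 12 and 1.13, 1.06 and 1.07% at week 4. The unconverted share of the mitochondrial genome was lower at week 12 too. With that share subtracted in each library the class difference went from -0.257 to 0.0471 points, and at an unadjusted p under 0.05 there were 417 promoters higher and 140 lower. Cytosines at 10 to 90% differed the other way, with 61.5, 63.4 and 62.2% against 61.6, 59.2 and 60.4%, a difference of 1.98 points that the exact permutation test did not separate (p = 0.2, smallest p 0.1). With the mitochondrial share subtracted their difference was 2.28 points, without overlap (exact permutation p = 0.1).

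**Figure D5:**
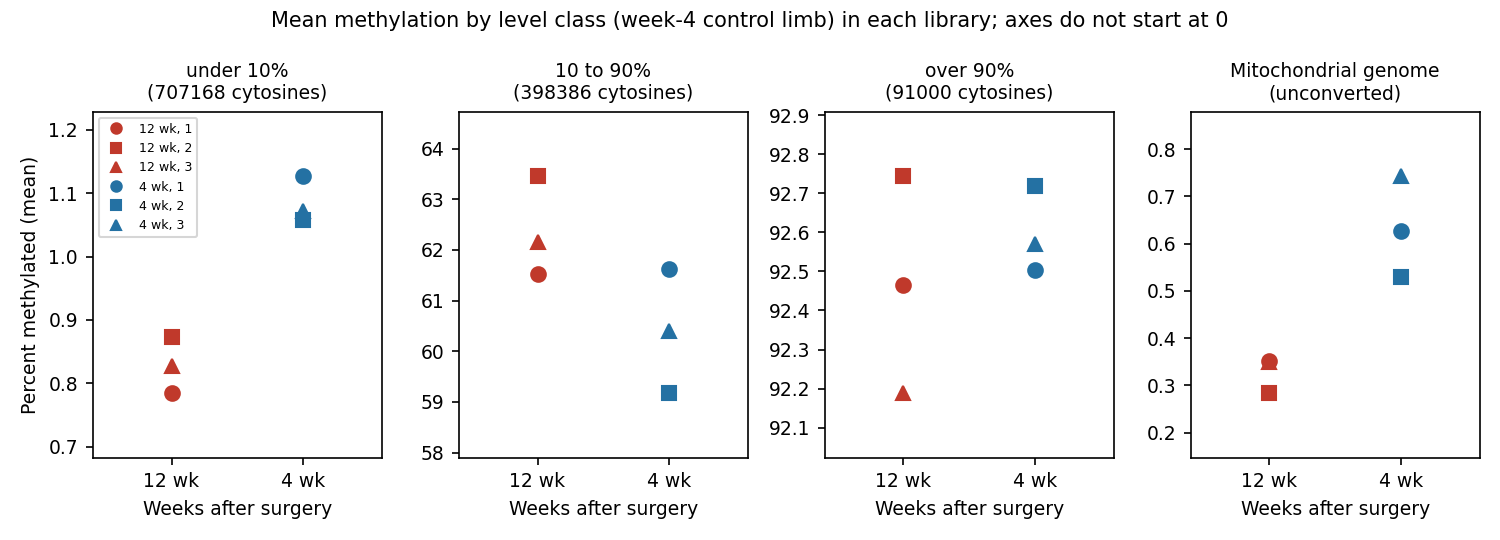
Mean methylation of cytosines grouped by their level in the week-4 control limb, and the share of mitochondrial reads left unconverted, in each oxBS library of DMM cartilage by week; axes do not start at 0. Under 10% the week-12 libraries lie at 0.785 to 0.873 and the week-4 ones at 1.06 to 1.13%, and the mitochondrial share is likewise lower at week 12.

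Among the 5 promoters of smallest p on the higher side, Popdc2, a cyclic AMP binding membrane protein gene of heart and muscle, had 61.4, 63.9 and 60.7% against 49.4, 42.8 and 49.8% over 7 CpGs at chr16:38361190-38362690, a difference of 14.7 points without overlap (limma log2 0.86, SE 0.195, adjusted p = 0.0554). Its control libraries overlapped, with 66.3, 63.3 and 64.9% against 68.7, 51.8 and 62.5%. The prostaglandin receptor gene Ptger1 had 11.7, 13.7 and 7.69% against 6.45, 3.85 and 5.26% over 4 CpGs, and Siglece, an inhibitory receptor gene of myeloid cells, 93.0, 97.3 and 89.9% against 79.2, 90.3 and 80.7% over 3 CpGs. 4833411C07Rik had 10.3, 10.1 and 8.09% against 5.30, 2.78 and 4.68%, and Kcnt2, a potassium channel gene, 2.18, 1.56 and 1.32% against 0.951, 0 and 0.865%. On the lower side, the 5 promoters of smallest p, Il15, Rab40c, Pmpcb, Slc29a3 and Tbc1d23, were all under 1.3% in every library, and Il15, the interleukin gene, had 0.124, 0 and 0% against 1.02, 1.03 and 1.04%.

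No promoter of the lists was called. Over all promoters 11940 of 14721 were lower, and 39.9% were lower without overlap. Promoter levels under about 1% are of the same order as the unconverted mitochondrial share, 0.284 to 0.351% at week 12 and 0.530 to 0.742% at week 4. With that share subtracted, 417 of all promoters were higher and 140 lower at an unadjusted p under 0.05 (limma). What causes the small differences of single promoters below was not tested. Of 33 promoters of the TGF-beta and BMP pathway 28 were lower, with a median of -0.285 points and 14 lower without overlap. Tgfbr1, a type I receptor of TGF-beta, had 0.494, 0.346 and 0.440% against 1.02, 1.27 and 1.07%. Of 41 WNT promoters 33 were lower (median -0.273 points, 15 without overlap), among them Lrp6, a WNT co-receptor, and Axin2, a feedback inhibitor. Inflammation and stress promoters were lower in 19 of 25, with 10 without overlap, and Stat3, which transmits cytokine signals, had 0.216, 0.321 and 0.194% against 0.774, 0.975 and 0.657%. Protease and inhibitor promoters were lower in 19 of 24 and had a median of -0.229 points, and those of hypertrophy and ossification in 9 of 10, at -0.292. Promoters of fibrillar, basement membrane and other matrix genes had a median of -0.102 points, with 12 of 22 lower and 5 without overlap. Limb and joint patterning promoters had -0.209 points (38 of 46 lower, 11 without overlap), regulators of other lineages -0.142 (42 of 65, 8 without overlap), Hox genes -0.231 (23 of 34, 4 without overlap) and imprinted genes -0.316 (16 of 28, 4 without overlap). In cartilage matrix promoters, 7 of 13 were lower, 2 of them without overlap, and Col11a2 had 8.97, 14.4 and 10.97% against 10.2, 5.19 and 6.49%, which overlap. The lowest difference of the Hox list was that of Hoxc4, with 31.7, 43.2 and 35.5% against 40.04, 50.9 and 47.2%, also with overlap.

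Of 18 measured promoters of genes that write, read and remove 5mC, 15 were under 5% at week 4. In this list 16 were lower, and the median difference over all 18 was -0.305 points. Tet3 had 0.410, 0.322 and 0.501% against 0.881, 1.26 and 0.827%, and Dnmt3a 0.423, 0.407 and 0.408% against 0.733, 0.702 and 0.739%. These levels, and those of Smad3 and Fos below, are of the same order as the unconverted mitochondrial share, which was likewise lower at week 12. With the mitochondrial share subtracted Dnmt3a and Dnmt3b were higher at week 12. RNA of the de novo methyltransferase Dnmt3a rose by 0.69 on the log2 scale (SE 0.184, adjusted p = 0.0301) and that of the dioxygenase Tet3 by 0.89 (SE 0.205, adjusted p = 0.0189), while Tet1 fell by 0.80 (SE 0.224, adjusted p = 0.0350). Dnmt1, Dnmt3b and Tet2 had log2 differences of 0.44, 0.66 and -0.26 and did not pass. Lrrc15, a leucine-rich repeat membrane protein gene that the study names, had 5.16, 6.61 and 7.74% in its promoter against 7.16, 3.39 and 5.47%, which overlap (adjusted p = 0.454), and RNA of 11.4 ± 5.32 against 24.6 ± 6.66 CPM (edgeR, adjusted p = 0.0578). DESeq2 called it lower, with a log2 difference of -1.12 (adjusted p = 0.00957). Smad3, which transmits TGF-beta signals, had 0.289, 0.330 and 0.120% in its promoter against 0.641, 0.377 and 0.591%, and was higher at week 12 once the mitochondrial share was subtracted (log2 0.18). Fos, an immediate early transcription factor gene, had a promoter at 0.213, 0.428 and 0.297% against 0.648, 0.732 and 0.929%, and its RNA rose by 1.87 (SE 0.521, adjusted p = 0.0461 in edgeR, and just above 0.05 with the size factors of DESeq2). RNA of Aspn, which encodes a small matrix proteoglycan, fell by 1.79 on the log2 scale (adjusted p = 0.0136), and its promoter had too few tested CpGs to be measured, as had those of Runx1, Tnfrsf11b and Dnmt1.

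Whether the change with time differed from that of the unoperated limb was tested as a week by limb interaction, without pairing the limbs. The study took the unoperated left knees of the operated mice as controls, so the limbs of a week share mice. Which DNA pools of the 2 limbs share them is not given in the sources used here. With the replicate number as a block within week, limma called no interaction either, and the cytosines were not fitted with such a block. No CpG cluster of 92401 and no promoter of 14547 was called (limma, 0%), while at an unadjusted p under 0.05 there were 1209 clusters with a higher (1.31%) and 1970 with a lower change in DMM (2.13%), and 192 (1.32%) and 390 (2.68%) promoters. Of 1196554 cytosines covered in all 12 libraries, 281 were called in the likelihood ratio test (0.0235%), 36 with a higher and 245 with a lower change in DMM. None of the 281 was a DMC, and the count ran from 3 to 2723 when 1 library was left out, 3 without replicate 2 and 2723 without replicate 1 of the week-4 control limb. Without the 2 week-12 libraries of the other title style it was 30.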

How the data were processed

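The authors digested DNA with MspI, made 6 indexed libraries per pool, split them into oxBS and BS arms (9 and 7 PCR cycles) and sequenced 50-base single reads. The processing notes name CASAVA 2.17, Bismark and build mm10. The deposited files give, per CpG cytosine at 10 reads or more, the coverage as a read count and the percent methylated. RNA files hold deposited counts per RefSeq transcript (STAR, featureCounts). Each gene was represented here by its transcript with the most counts over the 6 libraries, not by a sum. The libraries had 27706547 to 47118148 counts. The RNA of the control limb was not used here.

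Methylated reads were rebuilt from percent and coverage. DMCs used a logistic likelihood ratio test with Benjamini-Hochberg q, in Python 3.11.15 with scipy 1.17.1, in place of the study's tool. CpG clusters and promoters used limma 3.58.1 on log2((methylated + 1)/(unmethylated + 1)), with trend and robust settings. RNA used edgeR 4.0.16 (quasi-likelihood, Benjamini-Hochberg), with DESeq2 1.42.0 as alternative. Gene windows are unweighted means over CpGs, merged over strands, with no test. Tests were checked on simulated data: of 100 cytosines changed by 30 points 68 were found, and of 100 changed by 40 points 97. The overdispersion-corrected test found none of these. These simulated reads had no spread between the libraries of a week, and only cytosines of middle level were changed. The check therefore does not show how the likelihood ratio test behaves under the spread of the real libraries.

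Groups follow the labels. Replicates are pools of 3 knees that the labels number, and which knees or mice were pooled is not given in the sources used here; p-values of limma, edgeR, DESeq2 and the permutation test measure the spread between these pools, and those of the likelihood ratio test do not. Same-numbered libraries of the 2 weeks did not deviate together (correlations -0.125, -0.0821 and -0.0315 over 34498 clusters). PCR reads are not independent molecules. The cytosines, lists and tests were chosen with earlier results of these data known. Genes were named by a rule: DMRs of at least 5 CpGs without overlap in a gene, the 5 promoters in each direction and the 3 in each list with the smallest p (where none passed), list genes with a DMR, and 12 genes that the study names for methylation or that write and erase 5mC. Other genes and sites, all gene windows and single cytosines included, were chosen after their values were seen. Alternatives varied coverage, thresholds, weighting, pseudocount, window and library, each changed alone.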

Additional observations from a re-analysis of the deposited data

Results flagged for a closer look

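The change with time differed between the operated and the unoperated limb at 281 cytosines by the test of the interaction itself. That test takes reads as independent and does not pair the limbs, although the unoperated knees were those of the operated mice. In 15 of the 281 every week-12 library was below every week-4 library in DMM and above in control, and in 11 the opposite held. Calling by a difference of changes favours such patterns, and their share over all cytosines was not counted. None of the 281 was called with every library left out in turn, and 3 were called in at least 11 of the 12 such fits. The cytosine at chr2:122349505, in a coding exon of Shf, changed by -29.5 points more in DMM than in control, with 5.49, 6 and 8.45% against 18.7, 2.70 and 17.98% in DMM and 25.9, 26.3 and 36% against 14.3, 6.84 and 12.7% in control. In an intron of Cdh23 at chr10:60593376 the difference of changes was -46.1 points, with 11.5, 19.4 and 25.5% against 38.0, 33.3 and 50% in DMM, without overlap, and 47.8, 27.8 and 51.4% against 17.2, 22.8 and 32% in control, with overlap. An intergenic cytosine at chr16:4578781 changed by 39.6 points more in DMM, with 56.0, 53.5 and 54.1% against 38.5, 40.9 and 42.4% there and 31.5, 5.88 and 27.9% against 23.3, 63.1 and 46% in control. The overdispersion-corrected test called none of the 281.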

How the results depend on the processing

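The 129 DMCs became 25 at 20 reads, 257 at 20 points, 43 with coverage scaled to 20 reads and 0 with the overdispersion correction (8978 at an unadjusted p under 0.05; limma per cytosine called 116), and 100 to 2345 without 1 library. The 2 DMRs became 0 at 20 reads, with the overdispersion correction and with scaled coverage, 6 with CpGs of one direction, 4 at q under 0.05 and 1 at a mean of 25 points, and 0 to 56 without 1 library. Neither region has a CpG at 20 reads in all 6 libraries. Clusters called went from 0 to 0 to 21 without 1 library. Promoters called were 1822 without trend and robust settings, of which 2 were higher, 1368 with at least 6 CpGs, and 1 with the mitochondrial share subtracted, an alternative chosen after the data were seen. Interaction calls went from 281 to 0 with the overdispersion correction, 30 without the 2 libraries of the other title style (chosen after the data were seen), and 3 to 2723 without 1 library. RNA calls went from 3283 to 4980 with all transcripts, 922 to 5197 without 1 library, and 4424 in DESeq2. Mean 5mC reversed to -0.647 points when weighted by reads. Reversed too were a cytosine with its strands merged (-1.54 points), the promoter of Nkx3-2 without replicate 3 of week 12 (log2 -0.18) or of week 4 (-0.13), with a range up to 0.16 when 1 library was left out, and in a narrower window (-0.45), Fbn1 (0.57) and Hoxa4 (0.49) in that window, Dnmt3b in a wider window (0.074), and with the mitochondrial share subtracted Msx1 (0.052), Smad3 (0.18), Dnmt3a (0.66) and Dnmt3b (0.52). The cause was not tested.

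With the replicate number as a block 126 DMCs, 2 DMRs (Macroh2a1 but not Nkx3-2), 0 clusters, 0 promoters, 0 interaction clusters and 3349 RNA genes were called; the numbers pair no knees. The median of the cartilage matrix windows stayed positive in all 9 alternatives (2.25 to 4.48 points, chosen after the data were seen). The shallowest library, replicate 2 of week 4, had a median of 24 reads, and 122 DMCs were called without it.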

Other observations

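Over the 1196554 cytosines covered in all 12 oxBS libraries, replicates 2 and 3 of DMM at week 12 lay at least 20 points above each of the other 4 DMM libraries at 1545 cytosines and at least 20 points below at 101. Replicate 1 of week 12 lay that far above the other 5 DMM libraries at 99 and below at 243. At the 1545, as picked, the medians were 85.7 and 85% in these libraries, 38.4% in replicate 1 of week 12 and 43.8 to 45.5% at week 4. The control limb split in the same way, with medians of 84.3 and 85.2% in replicates 1 and 3 of week 12 and 41.7% in replicate 2; the control libraries were not used to pick the cytosines. At 121 cytosines of the upward kind among those tested in DMM the other strand was also covered. There these 2 libraries stood above the other 4 by a median of 37.8 points on the strand that was picked and 0.415 points on the other, and in 60.3% the gap on the other strand was under 10 points.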
